A study of Mus musculus with 9 samples.

Results

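The genes described here encode the scaffold, adhesion and vesicle proteins of the synapse, and their transcript levels were read in the anterior cingulate cortex of mice after saline, ketamine or sleep deprivation. The set was a list of 45 named genes, 22 with products on the postsynaptic side and 23 with products on the presynaptic side, and all 45 were found among the 22180 genes with a usable probe set. Genes entered by name. Each gene was read from the probe set that carried its symbol alone, and the brightest on average was taken for the 6 genes with several.

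Transcripts were measured on 9 Affymetrix arrays of mice of the inbred strain C57BL/6J, with 3 arrays per group and no genetic modification named in the labels. The control group was given saline intraperitoneally at ZT5, 5 h after the start of the light phase, at 100 µl per 0.03 kg of body weight. The ketamine group, called KT below, received 3 mg/kg of ketamine by the same route at the same time. Ketamine blocks the NMDA class of glutamate receptor. The sleep-deprived group, called SD below, lived in a circular cage in which a bar turning at 1.5 rpm kept the mice awake for 12 h, from ZT0 to ZT12, and the labels name no injection for it. All mice were killed at ZT13, 8 h after injection or 1 h after the end of sleep deprivation, and the cortex was dissected from 1.34 to -0.5 mm relative to bregma. Age and sex are not given in the labels used here. The titles call the replicates biological.

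At an excitatory synapse, an action potential opens calcium channels in the axon terminal, and synaptotagmin, the calcium sensor, lets the SNARE proteins fuse docked vesicles with the membrane at the active zone. Across the cleft, neurexins on the axon bind neuroligins and LRRTM proteins on the dendrite, which hold the contact together. Beneath the dendritic membrane a lattice of MAGUK, SAPAP, Shank and Homer proteins anchors glutamate receptors, and CaMKII, a kinase activated by calcium, changes the strength of the contact.

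Differences are given as the change in log2(intensity + 16) between group means ± SE from 1 limma fit of all 9 arrays, with n = 3 arrays per group and Benjamini-Hochberg adjustment over all 22180 genes. The number of arrays limits the precision. Array medians lay between 97.7 and 106.2, and arrays of 1 group correlated at 0.986 to 0.995. The running numbers in the array names follow the groups in order, so any effect of that order and of the group cannot be told apart. Markers of neurons were present, with Rbfox3, which encodes the nuclear protein NeuN, between 1262 and 1564 in the 9 arrays. Saline replicate 2 stood apart in Ttr, a gene that the choroid plexus expresses strongly, at 8428, whereas saline replicate 1 had 1624 and the other 7 arrays had 89 to 467. The 14 oligodendrocyte markers were also uneven, with a median of 0.45 above the saline mean in KT replicate 2 and -0.27 in KT replicate 3. The part of these differences in the results was not tested. In bulk tissue, fewer cells of a type and less RNA per cell cannot be told apart.

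Synaptic genes were measured well enough to bound their changes, and no member passed the adjusted threshold in any comparison. All 45 had a mean intensity above the median of the genes tested, and 43 lay in the brightest 33.3%. In KT against saline limma called 0 of the 45 at an adjusted p of 0.05, where 0% of all genes were called, and 0 members had an unadjusted p under 0.05, against 2.35% of all genes lower and 2.21% higher. In SD against saline 0 members were called, again beside 0% of all genes, and 1 member, Lrrtm4, was lower at an unadjusted p under 0.05, beside 1.72% of all genes lower and 1.80% higher. In KT against SD 0 members were called, with 0% of all genes, and 0 had an unadjusted p under 0.05, beside 4.38% of all genes lower and 5.10% higher. The smallest adjusted p among members was 0.87, 1 and 0.554 in the 3 comparisons. The KT and SD comparisons share the saline arrays, so their values are set side by side only.

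The 95% intervals show what size of change these arrays leave possible. In each comparison the interval of 44 of the 45 genes lay within 0.5 on the log2 scale of no change, a 1.41-fold change, and the exception each time was Slc17a6. Within 0.3, a 1.23-fold change, lay the intervals of 31 genes in KT against saline, 33 in SD against saline and 24 in KT against SD. The shares of all genes within 0.3 were 37.6%, 45.4% and 33.0%. The standard errors of the members ran from 0.084 to 0.19, beside a median of 0.11 over all genes.

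**Figure D1:**
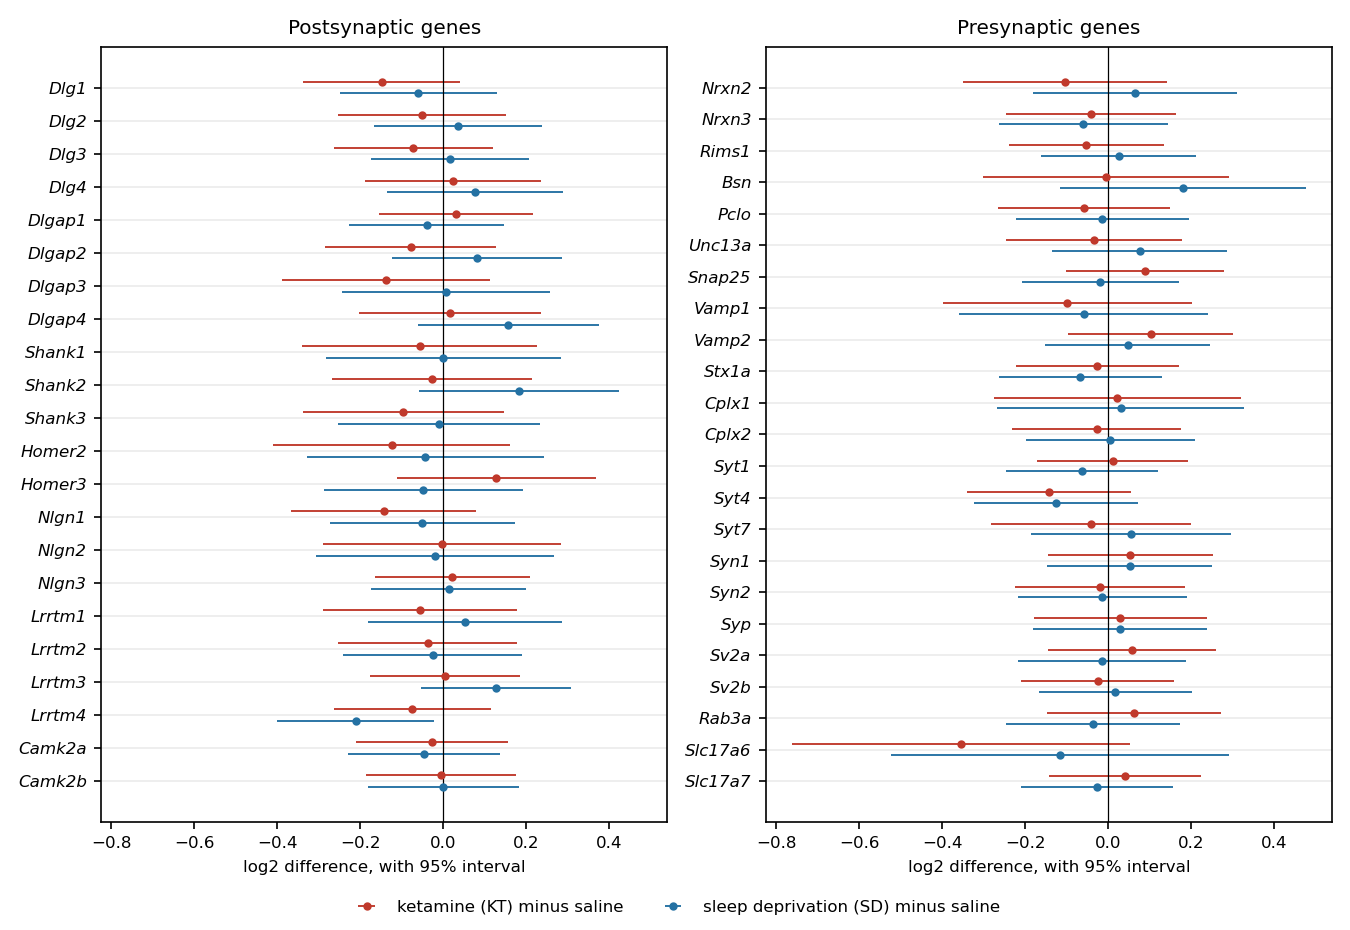
Differences of KT minus saline and SD minus saline for the 22 postsynaptic and 23 presynaptic genes, in log2 units on the horizontal axis, where points are group differences and lines are 95% intervals of the limma fit with 3 arrays per group. The interval of Lrrtm4 for SD lies below 0, and that of Slc17a6 is the widest.

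Postsynaptic genes had a median difference of -0.045 in KT against saline, with 16 of 22 below 0, and presynaptic genes had -0.025, with 14 of 23 below 0. The median of all genes was -0.015, and that of the brightest 33.3% of genes, where nearly all of these members lie, was -0.069 with 79.4% below 0. In SD against saline the medians were -0.00029 for postsynaptic and -0.014 for presynaptic genes, beside -0.0088 for all genes and 0.00052 for the brightest 33.3%. In KT against SD the postsynaptic median was -0.083 with 16 of 22 below 0 and the presynaptic median -0.0078 with 13 of 23 below 0. The brightest 33.3% of genes had -0.072 there, with 78.3% below 0. Without SD replicate 1 the postsynaptic median of KT against SD was -0.0021, and after quantile normalization the KT-against-saline medians were 0.0051 for postsynaptic and 0.015 for presynaptic genes. The 14 neuron markers had medians of -0.032 in KT against saline and 0.048 in SD against saline. Their median in KT against SD was -0.038, with 11 of 14 below 0. All 12 endothelial markers were below 0 in that comparison, at a median of -0.25, and 8 had an unadjusted p under 0.05. Of all genes 4.38% were lower at that threshold. Other markers went the other way in KT against SD. Of 14 oligodendrocyte markers 12 were above 0, at a median of 0.16, and all 9 choroid plexus and ependymal markers were, at 0.18. The part of these markers in the medians was not tested.

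**Figure D2:**
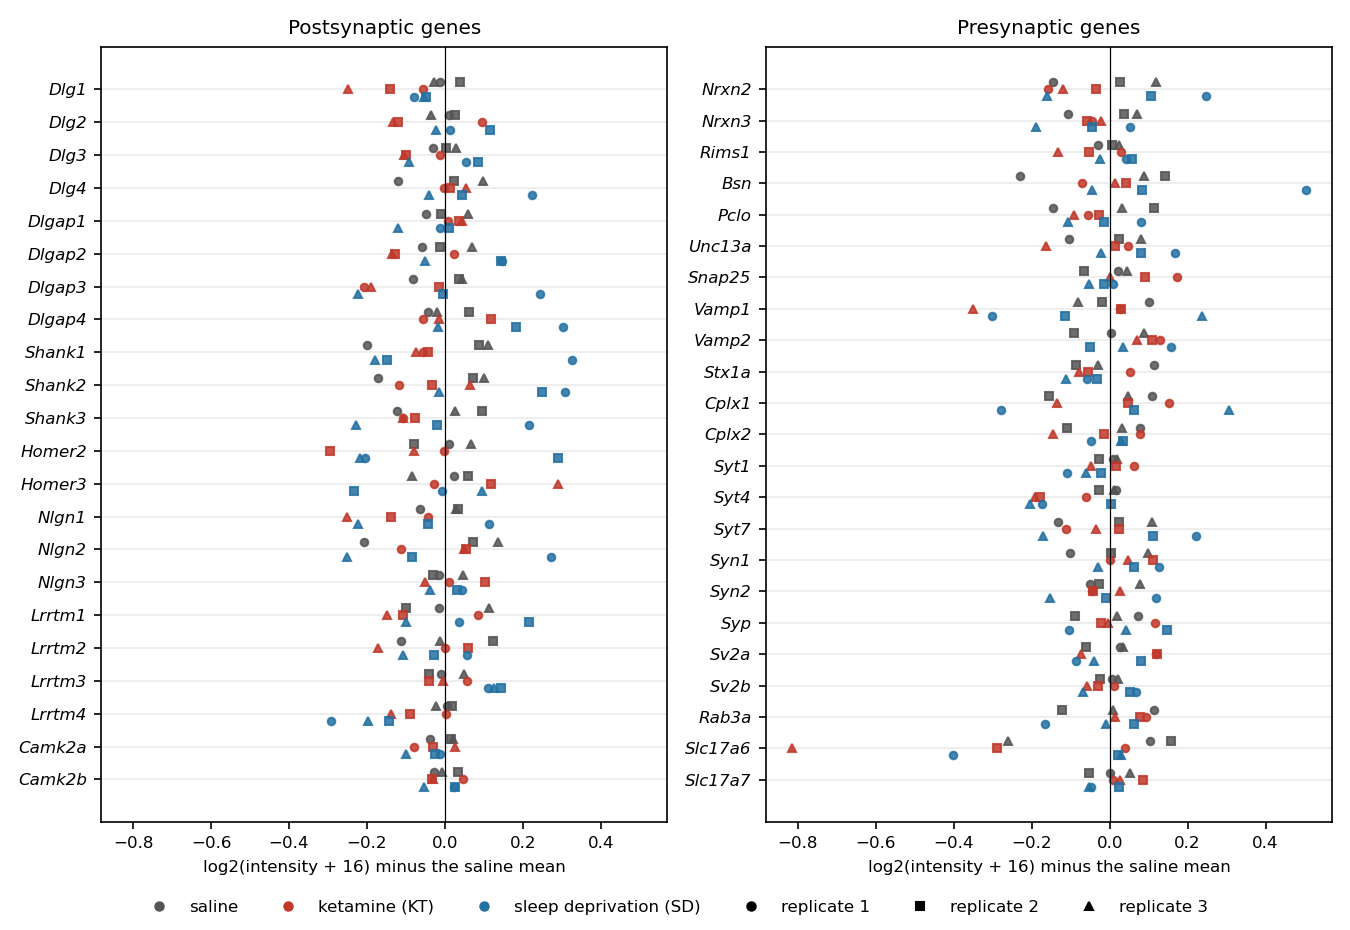
Level of each gene in each array as log2(intensity + 16) minus the saline mean of that gene, on the horizontal axis, for postsynaptic genes at left and presynaptic genes at right, with colours for the groups and symbols for the replicates. The groups overlap for most genes, and the lowest point is Slc17a6 in KT replicate 3.

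Among the MAGUK scaffolds, Dlg1 encodes SAP97 and Dlg4 encodes PSD-95, which tethers glutamate receptors in the postsynaptic density. Dlg1 had intensities of 1591, 1649 and 1572 after saline, 1541, 1453 and 1347 after KT, and 1518, 1550 and 1544 in SD. All 6 treated arrays lay below the 3 saline arrays, which makes Dlg1 1 of 2 members lower without overlap in each comparison with saline. The fitted differences were -0.15 ± 0.088 for KT (limma, unadjusted p = 0.112) and -0.060 ± 0.088 for SD (unadjusted p = 0.502). Groups that did not overlap were found for 7.89% of all genes in the lower and 6.48% in the higher direction in KT against saline, and for 3.54% and 3.57% in SD against saline. Dlg4 had 1337, 1478 and 1557 after saline, 1454, 1469 and 1512 after KT and 1701, 1500 and 1414 in SD, with differences of 0.023 and 0.076, and its groups overlapped. Dlg2 and Dlg3, which encode PSD-93 and SAP102, were at -0.051 and -0.072 for KT and at 0.036 and 0.016 for SD. All 4 MAGUK genes were below 0 in KT against SD, from -0.088 to -0.053.

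SAPAP proteins link the MAGUK layer to Shank. Of the 4 genes, Dlgap3 had 828, 900 and 904 after saline, 758, 867 and 766 after KT and 1042, 874 and 749 in SD. The SD arrays spanned the values of both other groups, and the differences were -0.14 ± 0.12 for KT and 0.0064 ± 0.12 for SD. Dlgap4 was at 983, 1059 and 999 after saline and at 1254, 1152 and 1002 in SD, a difference of 0.16 ± 0.10 with overlap at the third SD array. Dlgap1 and Dlgap2 ran from -0.079 to 0.031 in KT and from -0.041 to 0.080 in SD.

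Shank proteins form the deep layer of the lattice and bind Homer. Shank2 had 426, 507 and 517 after saline, 443, 471 and 505 after KT and 600, 576 and 477 in SD. Its SD difference of 0.18 ± 0.11 (limma, unadjusted p = 0.127) was the largest above 0 among the 45 genes, and the third SD array lay within the saline range. Shank1 had 2424, 2963 and 3007 after saline and 3495, 2511 and 2460 in SD, with 1 SD array above the saline range and the others near its lower end, and the difference was -0.00016 ± 0.13. Shank3 was at -0.097 for KT and -0.011 for SD. The 3 genes were at -0.21 to -0.057 in KT against SD.

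Homer proteins are adaptors that tie Shank to metabotropic glutamate receptors and calcium stores. Homer2 had 379, 355 and 395 after saline, 376, 304 and 355 after KT and 324, 464 and 322 in SD, with differences of -0.12 ± 0.13 and -0.044 ± 0.13. Homer3 had 133, 136 and 122 after saline, 128, 143 and 163 after KT and 130, 108 and 140 in SD, with differences of 0.13 ± 0.11 and -0.048 ± 0.11. Groups overlapped for both. The related gene Homer1, whose short form is made when neurons are active, differed more. It had 1232, 1400 and 1140 after saline, 1095, 919 and 900 after KT and 1453, 1550 and 1363 in SD. Every KT array lay below every saline and SD array, while SD and saline overlapped. The differences were -0.37 ± 0.11 for KT (limma, unadjusted p = 0.00475, adjusted p = 0.87), 0.21 ± 0.11 for SD (unadjusted p = 0.0728) and -0.58 ± 0.11 for KT against SD (adjusted p = 0.241).

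The promoters of the 3 Homer genes are printed because the genes share a protein family while their values differed. Each runs from 250 bases before to 50 bases after the RefSeq start site that lies farthest upstream, 5′ to 3′ along the gene, build GRCm38.p6. Capitals mark TGACG or its complement CGTCA, the core of the cAMP response element TGACGTCA through which the activity-dependent factor CREB binds, and TATAAA or its complement TTTATA, the TATA box. Homer1 lies at chr13:93303507-93303806 on the plus strand, Homer2 at chr7:81706876-81707175 on the minus strand and Homer3 at chr8:70282749-70283048 on the plus strand.
Homer1: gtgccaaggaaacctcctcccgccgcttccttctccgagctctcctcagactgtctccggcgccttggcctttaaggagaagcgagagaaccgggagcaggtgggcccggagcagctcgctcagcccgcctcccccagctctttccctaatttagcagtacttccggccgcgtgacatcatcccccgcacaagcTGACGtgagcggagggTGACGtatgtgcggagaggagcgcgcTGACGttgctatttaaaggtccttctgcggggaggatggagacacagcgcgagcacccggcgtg
Homer2: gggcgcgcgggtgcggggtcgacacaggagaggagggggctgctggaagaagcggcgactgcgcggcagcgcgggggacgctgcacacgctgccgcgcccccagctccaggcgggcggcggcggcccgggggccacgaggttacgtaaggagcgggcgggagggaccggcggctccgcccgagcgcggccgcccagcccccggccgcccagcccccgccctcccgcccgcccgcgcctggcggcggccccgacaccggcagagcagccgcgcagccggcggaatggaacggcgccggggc
Homer3: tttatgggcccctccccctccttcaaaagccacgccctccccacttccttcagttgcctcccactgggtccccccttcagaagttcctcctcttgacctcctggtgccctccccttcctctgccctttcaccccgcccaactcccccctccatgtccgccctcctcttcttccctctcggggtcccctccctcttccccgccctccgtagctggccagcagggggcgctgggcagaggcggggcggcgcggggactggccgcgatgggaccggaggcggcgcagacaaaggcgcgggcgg
The Homer1 window holds TGACG 3 times, and those of Homer2 and Homer3 hold it 0 times. RefSeq lists a second start each for Homer1 and Homer2, and TGACG stands 0 times in both of those windows, so the contrast holds for the Homer1 start printed here and not for its other one. At least 3 copies on either strand were found in 1.03% of 32851 mouse promoter windows of this length. The GC content was 63%, 82.3% and 69.7%. A match describes letters in a window, and no binding was measured here.

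Neuroligins are the dendritic partners of neurexins. Nlgn1, found at excitatory contacts, had 898, 962 and 959 after saline, 911, 852 and 786 after KT and 1016, 910 and 803 in SD. Its differences were -0.14 ± 0.10 for KT and -0.051 ± 0.10 for SD, with overlap in both. Nlgn2, found at inhibitory contacts, had 830, 1010 and 1057 after saline and 1164, 905 and 805 in SD, and differences of -0.0037 ± 0.13 and -0.021 ± 0.13. Nlgn3 lay at 0.022 and 0.013.

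LRRTM proteins are leucine-rich repeat proteins that also bind the axon from the dendrite, and 2 of the 4 separated SD from saline in opposite directions. Lrrtm4 had 691, 696 and 677 after saline, 689, 646 and 623 after KT, and 559, 621 and 598 in SD. The SD arrays lay below all 6 others, and the KT arrays reached into the saline range. The SD difference was -0.21 ± 0.088 (limma, unadjusted p = 0.0314, adjusted p = 1), and KT was at -0.075 ± 0.088. Without saline replicate 1, 2 or 3 or SD replicate 1 the unadjusted p of SD was 0.0619 to 0.107 and the difference -0.22 to -0.17. A second, dimmer probe set of Lrrtm4, with a mean intensity of 67.4, gave 0.023 ± 0.14 for SD and -0.17 ± 0.14 for KT. With the mean of both probe sets the SD difference was -0.094 (unadjusted p = 0.33).

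Lrrtm3 had 1056, 1032 and 1099 after saline, 1105, 1033 and 1059 after KT, and 1149, 1175 and 1160 in SD. All 3 SD arrays lay above the 6 others. The difference was 0.13 ± 0.084 for SD (limma, unadjusted p = 0.155), 0.0041 ± 0.084 for KT and -0.12 ± 0.084 for KT against SD. Lrrtm3 was the 1 member lower and Lrrtm4 the 1 member higher without overlap in KT against SD, where 5.54% of all genes were lower and 4.53% higher in that way. In SD against saline, 2 of 45 members, Dlg1 and Lrrtm4, were lower without overlap and 1, Lrrtm3, was higher. Lrrtm1 and Lrrtm2 lay between -0.057 and 0.052 in both comparisons with saline.

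The promoters of this opposed pair are printed in the same form, Lrrtm3 from chr10:64090206-64090505 on the minus strand and Lrrtm4 from chr6:80018627-80018926 on the plus strand.
Lrrtm3: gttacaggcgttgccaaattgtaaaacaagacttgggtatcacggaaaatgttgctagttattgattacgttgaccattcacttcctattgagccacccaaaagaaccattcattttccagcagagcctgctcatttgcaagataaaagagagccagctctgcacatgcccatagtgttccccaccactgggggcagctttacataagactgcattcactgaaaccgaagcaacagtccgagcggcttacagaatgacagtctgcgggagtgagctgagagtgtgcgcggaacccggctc
Lrrtm4: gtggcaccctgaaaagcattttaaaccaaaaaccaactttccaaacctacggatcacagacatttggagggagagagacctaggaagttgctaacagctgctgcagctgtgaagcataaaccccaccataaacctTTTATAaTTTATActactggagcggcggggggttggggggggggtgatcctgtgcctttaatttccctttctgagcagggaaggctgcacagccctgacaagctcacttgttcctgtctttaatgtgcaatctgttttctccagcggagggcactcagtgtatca
Neither window holds TGACG or CGTCA. The Lrrtm4 window holds TTTATA 2 times and the Lrrtm3 window 0 times, and both have a GC content of 48.7%. The window of a second RefSeq start of Lrrtm4 holds TTTATA or TATAAA 0 times, and the arrays do not tell which start was used.

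Camk2a and Camk2b encode the main forebrain subunits of CaMKII, and their values stayed close together. Camk2a had 4974, 5166 and 5181 after saline, 4835, 4996 and 5204 after KT and 5060, 5013 and 4766 in SD, with differences of -0.027 ± 0.085 and -0.046 ± 0.085. Camk2b was at -0.0057 and -0.00043. The intervals of both genes lay within 0.23 of no change in both comparisons with saline.

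**Figure D3:**
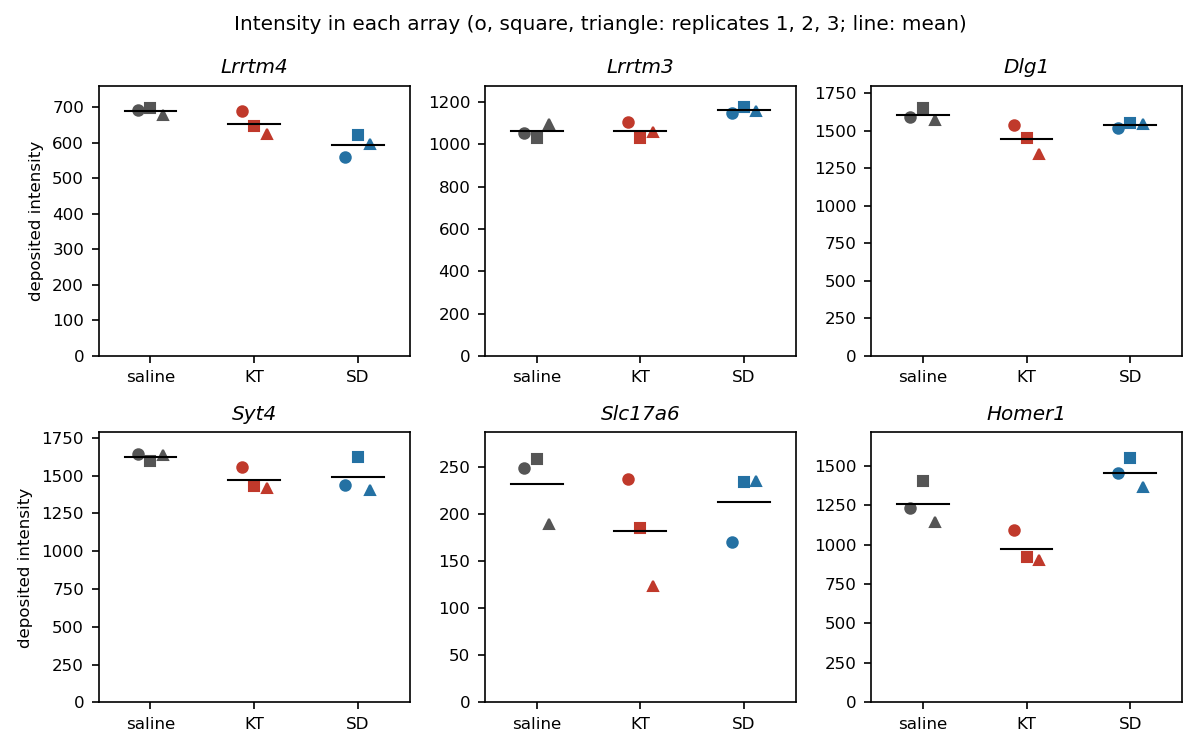
Deposited intensity (vertical axis, from 0) of Lrrtm4, Lrrtm3, Dlg1, Syt4, Slc17a6 and the related gene Homer1 in each array, by group, with replicates as symbols and group means as lines. For Lrrtm4 the SD arrays lie at 559 to 621 and the others at 623 to 696, and for Homer1 the KT arrays lie at 900 to 1095, below all the others.

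On the presynaptic side, neurexins are the axonal adhesion proteins. Nrxn2 had 784, 885 and 944 after saline, 777, 848 and 798 after KT and 1035, 935 and 776 in SD, with differences of -0.10 ± 0.11 and 0.064 ± 0.11. Nrxn3 was at -0.042 and -0.061.

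Active zone proteins position vesicles for release. Bsn, which encodes the large scaffold Bassoon, had 869, 1130 and 1086 after saline, 972, 1052 and 1031 after KT and 1456, 1083 and 990 in SD. Its SD difference of 0.18 ± 0.14 rested largely on a high first SD array and a low first saline array. These lay 0.32 above and 0.23 below their group means (deviations of 0.32 and -0.23). The other SD arrays lay within the saline range. Pclo, which encodes Piccolo, was at -0.058 ± 0.097 for KT and -0.014 ± 0.097 for SD, with saline arrays of 1983, 2377 and 2247. Rims1 and Unc13a, which prime vesicles, lay at -0.053 and -0.034 for KT and at 0.025 and 0.076 for SD. The 4 genes were below 0 in KT against saline and in KT against SD.

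SNARE proteins drive membrane fusion. Snap25 had 8944, 8414 and 9081 after saline, 9923, 9389 and 8812 after KT and 8861, 8725 and 8495 in SD. The third KT array lay inside the saline range, and the differences were 0.088 ± 0.088 and -0.019 ± 0.088. Vamp2, the synaptobrevin of most forebrain vesicles, was at 0.10 ± 0.093 for KT and 0.047 ± 0.093 for SD, with KT arrays of 1673, 1652 and 1605 and a highest saline array of 1626. Vamp1 and Stx1a ran from -0.099 to -0.027 in the comparisons with saline. Complexins clamp and promote the SNARE complex. Cplx1 had 1829, 1518 and 1751 after saline and 1393, 1769 and 2100 in SD, a spread wider than any group difference, and its differences were 0.022 and 0.030. Cplx2 lay at -0.028 and 0.0050.

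Several synaptotagmins bind calcium. Syt1, the fast calcium sensor, had 5905, 5759 and 5944 after saline, 6129, 5939 and 5672 after KT and 5442, 5782 and 5629 in SD, with differences of 0.010 ± 0.085 and -0.063 ± 0.085. Syt4, which is found on dense-core vesicles, had 1642, 1594 and 1636 after saline, 1557, 1432 and 1419 after KT and 1437, 1627 and 1408 in SD. The KT arrays lay below the saline arrays, and Syt4 was with Dlg1 the other of 2 members lower without overlap in that comparison, while 0 were higher. The differences were -0.14 ± 0.092 for KT (limma, unadjusted p = 0.141) and -0.13 ± 0.092 for SD. The dimmer probe sets of Syt4 gave -0.36 ± 0.17 and -0.25 ± 0.14 for KT. Syt7 was at -0.041 and 0.054.

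Genes of vesicle proteins differed between groups by less than the spread of their arrays. Syn1, which encodes the synapsin that tethers vesicles in reserve, had 3032, 3266 and 3489 after saline, 3258, 3518 and 3365 after KT and 3555, 3400 and 3188 in SD, with differences of 0.053 ± 0.092 and 0.052 ± 0.092. Syp, the synaptophysin gene often used to mark terminals, had 3167, 2832 and 3050 after saline, 3268, 2966 and 3002 after KT and 2802, 3337 and 3104 in SD, with differences of 0.029 ± 0.097 and 0.028 ± 0.097. The 6 genes of this role, which include Syn2, Sv2a, Sv2b and the vesicle GTPase gene Rab3a, lay between -0.025 and 0.061 for KT and between -0.037 and 0.052 for SD.

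Vesicular glutamate transporters fill vesicles, Slc17a7 (VGLUT1) in most cortical neurons and Slc17a6 (VGLUT2) mainly in thalamic and other subcortical neurons. Slc17a6 had 249, 259 and 189 after saline, 237, 185 and 124 after KT and 170, 234 and 235 in SD. The values of all 3 groups overlapped, and KT replicate 3 was the lowest. The KT difference of -0.36 ± 0.19 (limma, unadjusted p = 0.0818) was the largest in size among the 45 genes. It was -0.13 without KT replicate 3 and -0.55 without KT replicate 1, and its 95% interval ran from -0.76 to 0.051. Slc17a7 had 2795, 2691 and 2900 after saline, 2811, 2965 and 2847 after KT and 2700, 2840 and 2693 in SD, with differences of 0.040 ± 0.085 and -0.026 ± 0.085. Of the members given with all arrays, Lrrtm4 entered by its unadjusted p, and the others were chosen as examples after their values were seen.

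Ranges of single arrays were wider than ranges of group means in these genes, as in most genes tested. For 43 of the 45 genes, or 95.6%, the range of arrays within some group was larger than the range of the 3 group means. For all genes the share was 95.1%. A mean of 3 arrays varies less than single arrays, so this outcome is usual without any group difference. SD replicate 1 held the highest of the 9 values in 17 genes, or 37.8%, whereas it was highest in 12.4% of all genes. The lowest value lay in SD replicate 3 for 13 genes and in KT replicate 3 for 13 genes, or 28.9% each, beside 8.55% and 24.7% of all genes. SD replicate 3 lay below the saline mean for 20 of 22 postsynaptic and 17 of 23 presynaptic genes, at medians of -0.095 and -0.045. The 7394 brightest genes, which include 43 of the 45 members, had a median of -0.062 in that array. All genes had 0.0064 there. A median below 0 in that array was thus shared with bright genes in general, though the postsynaptic median lay lower than theirs.

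Whole roles were high or low in these arrays. Shank genes had a median of 0.31 above their saline mean in SD replicate 1, -0.18 in SD replicate 3 and -0.17 in saline replicate 1. Active zone genes had 0.12, -0.035 and -0.12, and neurexins 0.15, -0.17 and -0.13 in the same order. Complexins ran the other way, with -0.16, 0.17 and 0.094. Across the 45 genes, the deviations of saline replicate 1 and SD replicate 1 from their own group means correlated at r = -0.87, and 37 genes had opposite signs, beside r = -0.20 over all 22180 genes. Saline replicate 1 and SD replicate 3 correlated at 0.77, beside 0.18 over all genes. Saline replicate 2 and SD replicate 1 correlated at 0.52, beside 0.16. The pairs correlated over these 45 genes were a selection, each with saline replicate 1 or SD replicate 1, and KT arrays were not among them. Over all genes, SD replicate 2 correlated at 0.54 with KT replicate 1 and at -0.51 with KT replicate 3. Over the 45 genes SD replicates 1 and 3 correlated at -0.82, beside -0.42, but deviations within 1 group sum to 0 and so are tied. The values of saline replicate 1 with SD replicates 1 and 3 are therefore not separate results. Nor are those of SD replicate 1 with saline replicates 1 and 2. These are correlations across genes of the same arrays, and genes are not independent replicates.

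**Figure D4:**
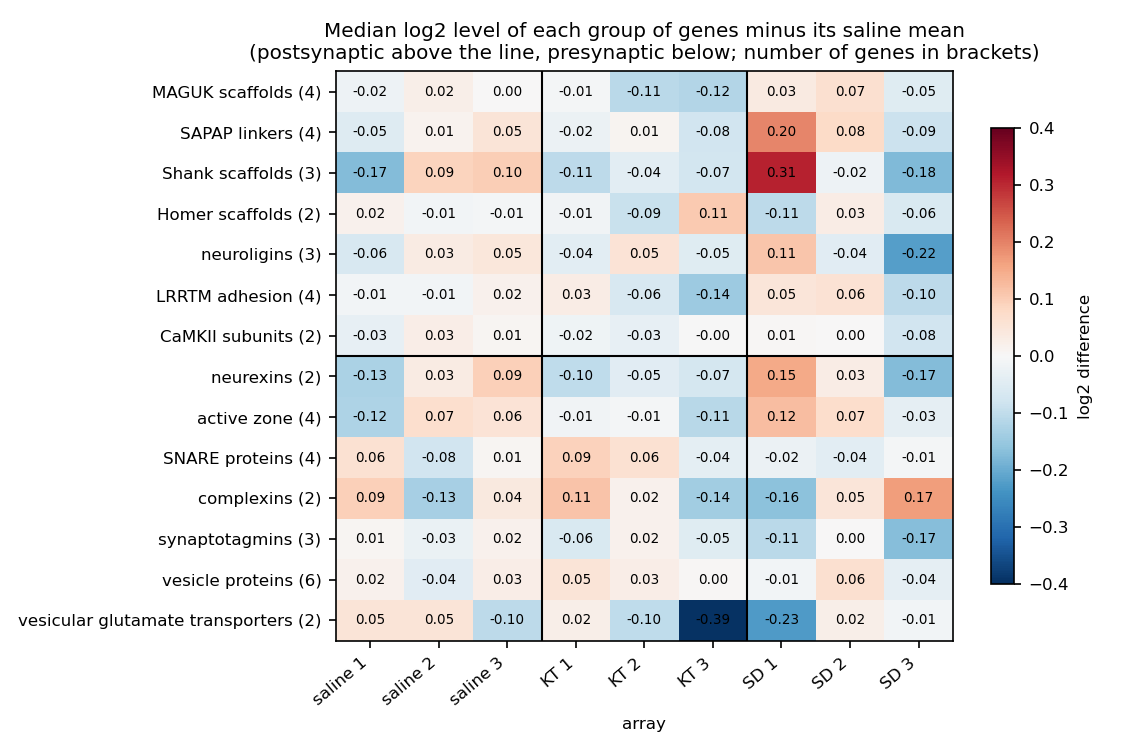
Median log2 level of the genes of each role minus their saline mean, for each of the 9 arrays, as colours with printed values, postsynaptic roles above the line. Shank genes reach 0.31 in SD replicate 1 and -0.18 in SD replicate 3, and the glutamate transporters reach -0.39 in KT replicate 3.

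At the level of single genes, Bsn and Shank1 were lowest in saline replicate 1 and highest in SD replicate 1. Vamp1 and Cplx1 stood the other way round between these arrays, at 443 and 331 for Vamp1 and at 1829 and 1393 for Cplx1. What sets these arrays apart was not tested. Leaving out SD replicate 3 moved the postsynaptic median of SD against saline from -0.00029 to 0.067.

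**Figure D5:**
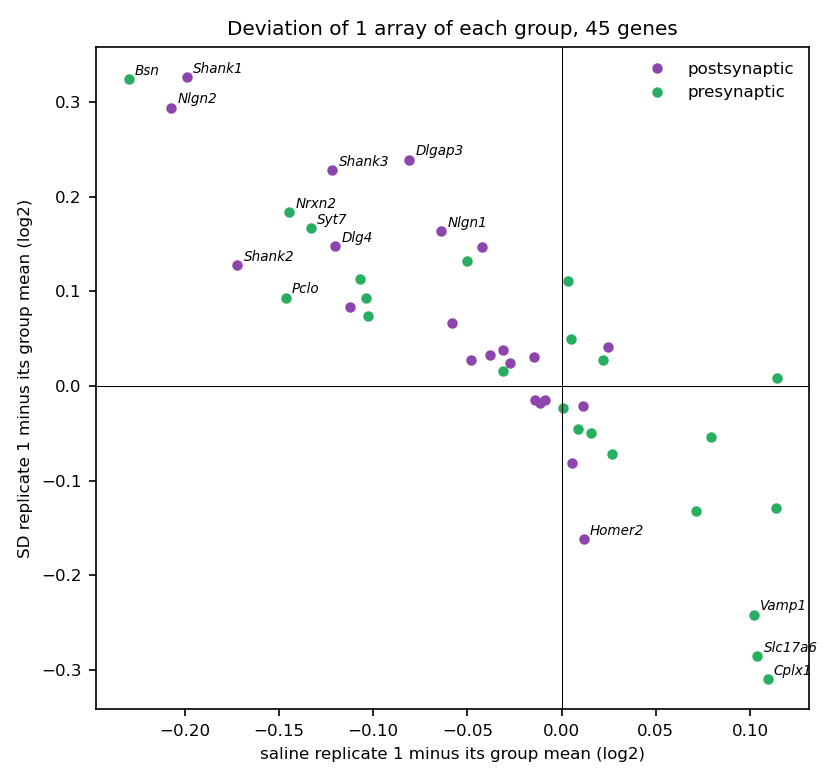
Deviation of saline replicate 1 (horizontal axis) and of SD replicate 1 (vertical axis) from their group means, in log2 units, for the 22 postsynaptic and 23 presynaptic genes, each point a gene. The points run from Bsn and Shank1 at upper left to Vamp1 and Cplx1 at lower right.

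Further synaptic genes were read from 2 lists of related genes. Of 48 postsynaptic genes 43 were measured, with medians of -0.051, 0.0087 and -0.076 in KT against saline, SD against saline and KT against SD. At an unadjusted p under 0.05, 1 was lower and 0 higher in the first, 1 lower and 1 higher in the second and 4 lower and 0 higher in the third, and limma called 0 after adjustment over all genes. These are 2.33%, 4.65% and 9.30% of the list, beside 4.57%, 3.52% and 9.48% of all genes in either direction. All 4 genes in KT against SD were lower, and in that direction alone the share of all genes was 4.38%. Of the 7394 brightest genes, 454 were lower and 53 higher in that comparison. Shisa7, an AMPA receptor auxiliary subunit, was at 0.28 ± 0.11 and Il1rapl1, an adhesion receptor, at -0.25 ± 0.11 in SD against saline. In KT against SD, Homer1 was followed by Shisa7 at -0.31 ± 0.11, the MAGUK gene Dlg5 at -0.24 ± 0.092 and Sipa1l1 at -0.19 ± 0.088.

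Of 75 presynaptic genes 70 were measured, with medians of -0.041, 0.022 and -0.047. In SD against saline 8 of the 70 were higher and 0 lower at an unadjusted p under 0.05, which is 11.4% beside 3.52% of all genes in either direction, and 0 passed after adjustment. Across the alternatives the count ran from 5 to 9. Cbln4, which encodes a secreted cerebellin that binds neurexins, had 229, 200 and 190 after saline, 216, 183 and 172 after KT and 250, 354 and 348 in SD. The SD arrays lay above all others, at 0.57 ± 0.13 against saline (limma, adjusted p = 0.924) and with KT at -0.68 ± 0.13 against SD (adjusted p = 0.242). Syt12 had 172, 168 and 184 after saline, 165, 162 and 153 after KT and 210, 212 and 213 in SD, at 0.26 ± 0.086 for SD and -0.12 ± 0.086 for KT. Syt13 was at 0.27 ± 0.090, the active zone gene Rims4 at 0.30 ± 0.10, the synapsin gene Syn3 at 0.28 ± 0.10 and Syt6 at 0.29 ± 0.11 for SD. For KT, Syt13 was at 0.016 ± 0.090, Rims4 at 0.17 ± 0.10, Syn3 at 0.16 ± 0.10 and Syt6 at 0.20 ± 0.11. The KT arrays of Syn3 and Syt6 lay above all saline arrays, as did those of 6.48% of all genes. In KT against saline 1 gene was lower, the cerebellin gene Cbln2 at -0.33 ± 0.11 (limma, unadjusted p = 0.0118), and 0 were higher. In KT against SD 5 were lower and 0 higher, namely Cbln4, Syt12, Cbln2, Rims3 and Syt13, from -0.68 to -0.25. These are 1.43% and 7.14% of the list, beside 4.57% and 9.48% of all genes in either direction. In the lower direction alone the shares of all genes were 2.35% and 4.38%.

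RefSeq promoter windows were found for 34 of the 45 members, in 55 windows of 300 bases. The full cAMP response element TGACGTCA stood in 1.82% of them, in Syn1 alone, beside 1.79% of all 32851 windows, counted on both strands. TGACG, which the full element contains, stood in 18.2% beside 20.8%. The E-box CACGTG stood in 7.27% beside 7.15%, and TATAAA in 10.9% beside 13.6%. The GC box GGGCGG stood in 47.3% beside 35.7%, in 39.3% of postsynaptic and 55.6% of presynaptic windows. Median GC content was 52.8% for postsynaptic and 59.0% for presynaptic windows, beside 52.7% for all windows.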

How the data were processed

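Total RNA of the dissected cortex was labelled and hybridised to 1 Affymetrix array per sample. The submitters' processing notes name Affymetrix Expression Console 1.1.1 and, for summarising probes into probe sets, PLIER 2.0. The authors deposited linear intensity values for 41345 probe sets. How background was corrected, how arrays were normalized and which genome build applied is not given in the sources used here. Names came from the platform annotation: 23521 probe sets had 1 gene, 1814 had several and 16010 had none, and only the first were used. Of several probe sets of 1 gene the brightest was taken.

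Values were put on the scale log2(intensity + 16), which understates the change of dim genes, and tested with limma (version 3.58.1, under R 4.3.3; functions lmFit, contrasts.fit and eBayes) in 1 fit of 9 arrays with 6 residual degrees of freedom and adjustment over 22180 genes at 0.05. The fit was tested on simulated data. No block was used. The unadjusted p threshold was 0.05, two-sided. Any member could be named. Those with an unadjusted p under 0.05, or without overlap and at least 0.2 in size, were given in full, the others by role with examples, and of each related list up to 6 genes per comparison with the smallest unadjusted p, beside Homer1. The members and lists were chosen with earlier results of these data known. Promoter sequences and motif counts came from RefSeq, build GRCm38.p6. Alternatives covered offsets of 1 and 64, quantile normalization, centring, removal of the dimmest 33.3% of genes, the mean of a gene's probe sets, limma-trend, array weights, only the arrays of the groups compared, leaving out each array, and the replicate number as a block.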

Additional observations from a re-analysis of the deposited data

How the results depend on the processing

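Across 19 alternatives limma called 0 of the 45 genes after adjustment in any comparison, and 24, 16 and 26 genes kept 1 sign throughout in KT against saline, SD against saline and KT against SD. Members at an unadjusted p under 0.05 in KT against saline, 0 as reported, numbered 5 of 45 with array weights and 2 with limma-trend. They numbered 1 with the mean of all probe sets and 0 to 1 with single arrays left out. Of all genes, 27.4% passed with array weights, 4.92% with limma-trend, 4.59% with the mean of probe sets and 2.05% to 8.44% with arrays left out. In SD against saline, 1 as reported, members numbered 0 with the mean of probe sets and 0 to 3 with arrays left out. The shares of all genes there were 3.53% and 2.57% to 9.37%. In KT against SD, 0 as reported, members numbered 2 with array weights and 1 each with an offset of 64, quantile normalization and limma-trend. They numbered 0 to 5 with arrays left out, 5 of them without SD replicate 3. Of all genes, 18.7% passed with array weights, 10.0% with that offset, 9.92% with quantile normalization and 9.91% with limma-trend. With arrays left out the share of all genes was 5.00% to 21.5%, with 21.5% without SD replicate 3.

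Calls over all genes, 0 in each comparison as reported, were 1439 in KT against saline with array weights, where KT replicate 2 had a weight of 7.92. In SD against saline they were 1 with centred arrays, 3 with limma-trend and 0 to 4 with arrays left out. In KT against SD they were 42 with array weights, 15 with limma-trend, 14 with an offset of 64, 5 without the dimmest genes and 0 to 214 with arrays left out, 214 without SD replicate 3. The cause was not tested.

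With arrays left out, the postsynaptic median ran from -0.080 to -0.013 in KT against saline, -0.035 to 0.067 in SD against saline and -0.12 to -0.0021 in KT against SD, where quantile normalization gave -0.020. The presynaptic median ran from -0.040 to 0.027, -0.037 to 0.021 and -0.045 to 0.0092. Lrrtm4 turned sign in KT against SD, to -0.029, with the mean of its probe sets. In the related lists, recomputed after seeing the data, genes at an unadjusted p under 0.05 numbered 1 to 14, 0 to 6 and 1 to 10 of 43 postsynaptic and 0 to 11, 5 to 9 and 5 to 11 of 70 presynaptic genes. The shares of all genes moved as well over these alternatives, from 2.05% to 27.4%, 2.57% to 9.37% and 5.00% to 21.5%.

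Deviations of same-numbered arrays of different groups from their group means correlated at -0.20 to 0.44. Those of differently numbered arrays ran from -0.51 to 0.54, so the numbers gave no sign of pairing. With 3 arrays per group such correlations cannot exclude it. With the replicate block in limma the medians were the same, Lrrtm4 was at -0.21 in SD against saline, the 1 member under the unadjusted threshold, and no call changed. The limits are 3 arrays per group, an unknown normalization between arrays, and array order that cannot be told apart from group.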

Other observations

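For 6 members the platform held dimmer probe sets besides the one used. That of Bsn gave -0.066 ± 0.23 for KT and 0.31 ± 0.23 for SD against saline. That of Nrxn2 gave -0.23 ± 0.19 and -0.030 ± 0.19, that of Shank3 0.10 ± 0.10 and 0.084 ± 0.10, and that of Syp 0.032 ± 0.10 and -0.17 ± 0.10. Both Shank3 values and the SD values of Nrxn2 and Syp had the opposite sign to the brighter probe set, and none of these had an unadjusted p under 0.05 in limma.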
